A study of Mus musculus with 3 samples.

Results

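Barcodes chosen for transcripts of alveolar type 1 cells were described in 3 single-cell RNA libraries of mouse lung. A barcode was taken when it held at least 5 unique molecular identifiers (UMIs, which count captured RNA molecules) of Ager, Hopx, Rtkn2 and Akap5 together, under 5% of its UMIs on Sftpc, and 0 UMIs of Cdh5, Pdgfrb and Col1a2. It also needed at least 1000 UMIs, at least 200 genes and a mitochondrial share under 25%. The rule found 347 members among 19899 barcodes that met these last limits (eligible barcodes). All mice were MMTV-HER2/Neu animals on the FvB background, in which the rat Neu (HER2) gene is driven by a mammary tumour virus promoter, and all 3 groups therefore carry the transgene. Lungs were digested and sorted, and each group is 1 library. The early HER2-negative library holds CD45-negative, HER2-negative lung cells of mice aged 14 to 18 weeks with no palpable tumour, labelled as non-cancer cells. The early HER2-positive library holds CD45-negative, HER2-positive cells of mice of that age and stage. The late HER2-positive library holds such cells from mice older than 20 weeks with primary tumours. The labels name the HER2-positive sorts as disseminated cancer cells, of an early and a late stage. The labels used here do not say how many mice were pooled. Stage, age, sort and animal cannot be told apart from library, and no test between groups can be made. Every interval given is a 95% interval of counting error alone.

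Type 1 cells are very flat and cover most of the gas-exchange surface of the lung, sharing a basement membrane with capillaries. Type 2 cells are cuboidal, make surfactant and can renew type 1 cells. Ager encodes the receptor for advanced glycation end products, Hopx a homeodomain-only protein, Rtkn2 the protein rhotekin 2 and Akap5 a kinase anchoring protein. Sftpc encodes surfactant protein C of type 2 cells, while Cdh5, Pdgfrb and Col1a2 mark endothelial cells, pericytes and fibroblasts.

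Of the 347 members, 215 had their largest marker share on other type 1 genes and the other 132 did not. Each member was assigned to the fixed marker list that took the largest share of its UMIs, among 14 lists of cell type markers from which the genes of the rule had been left out. This check was added after the data had been seen. Members whose largest share was on 13 other type 1 genes are called type 1-led below. They numbered 36 of 37 members in the early HER2-negative library, 123 of 166 in the early HER2-positive library and 56 of 144 in the late HER2-positive library. Most of the other members were led by ciliated or club (airway secretory) cell genes. They are called ciliated-led and club-led, which names the list and not a cell type. Some other members carried as much type 1 signal as the lowest type 1-led ones. The late member led by pericyte and smooth muscle genes held 27 rule UMIs and 0.481% of its UMIs on the 13 genes. The lowest late type 1-led share was 0.453%. Because the make-up of the members differed this much between libraries, comparisons of levels rest on the type 1-led members, with all members beside them where counts are given. The 13 genes and the other lists served to choose these cells, so their levels are given as description.

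The starts of genes that define these cells are shown first, since Ager and Hopx carried most of the selecting UMIs and Igfbp2 and Pdpn stood far above other barcodes in every library. Each run covers 250 bases before to 50 bases after the start that RefSeq gives on GRCm38.p6, 5′ to 3′ on the gene's strand, and capitals mark the letters CTTGAG or CTCAAG. The Ager run is chr17:34597600-34597899 (+ strand), the Hopx run chr5:77115074-77115373 (− strand), the Igfbp2 run chr1:72825137-72825436 (+ strand) and the Pdpn run chr4:143299515-143299814 (− strand). RefSeq gives 2 starts each for Hopx and Igfbp2, of which 1 is shown.
Ager: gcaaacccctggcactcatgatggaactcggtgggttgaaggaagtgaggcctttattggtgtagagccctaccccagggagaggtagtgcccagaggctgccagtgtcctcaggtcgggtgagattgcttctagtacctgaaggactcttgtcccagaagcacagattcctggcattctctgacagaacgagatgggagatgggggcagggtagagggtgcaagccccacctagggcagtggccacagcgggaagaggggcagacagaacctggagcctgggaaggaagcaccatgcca
Hopx: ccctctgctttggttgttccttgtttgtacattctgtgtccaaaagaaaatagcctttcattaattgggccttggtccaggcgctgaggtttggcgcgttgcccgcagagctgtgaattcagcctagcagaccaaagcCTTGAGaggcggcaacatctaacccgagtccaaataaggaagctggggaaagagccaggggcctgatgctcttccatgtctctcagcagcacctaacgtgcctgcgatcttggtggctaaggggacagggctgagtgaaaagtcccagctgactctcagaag
Igfbp2: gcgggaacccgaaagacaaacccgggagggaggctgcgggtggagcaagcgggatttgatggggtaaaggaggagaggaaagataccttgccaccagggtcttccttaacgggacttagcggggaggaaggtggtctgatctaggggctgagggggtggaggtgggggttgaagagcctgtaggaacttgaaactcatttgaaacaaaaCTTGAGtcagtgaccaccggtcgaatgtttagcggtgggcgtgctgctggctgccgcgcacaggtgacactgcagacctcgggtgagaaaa
Pdpn: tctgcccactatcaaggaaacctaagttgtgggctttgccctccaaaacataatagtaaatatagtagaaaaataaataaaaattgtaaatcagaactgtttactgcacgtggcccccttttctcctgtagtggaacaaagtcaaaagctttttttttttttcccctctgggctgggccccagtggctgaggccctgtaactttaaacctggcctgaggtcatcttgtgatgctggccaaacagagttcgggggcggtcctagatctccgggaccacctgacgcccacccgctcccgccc

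CTTGAG and its reverse CTCAAG are the core letters bound by NKX2-1, the lung epithelial homeodomain factor. They begin 112 bases before the Hopx start shown and 41 bases before the Igfbp2 start shown, and are not in the Ager and Pdpn windows. The other Igfbp2 window, chr1:72824230-72824529, holds neither run of letters, and the other Hopx window, chr5:77095218-77095517, holds 1. Over the 4 rule genes and the 20 leading genes given below, 18 of 24 matched the promoter table, with 31 starts. NKX2-1 letters were in 4 of these 31 windows (12.9%), against 15.9% of all 32851 promoters. GGAATG or its reverse CATTCC, the core letters of the TEAD factors, were in 4 of 31 (12.9%), against 14.7% of all promoters. The 2 motifs do not overlap each other, and both strands were searched. Neither share was above that of all promoters.

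The 3 libraries held 25610135, 49248126 and 54961019 UMIs, with the early HER2-negative library given first, then the early and the late HER2-positive one, an order kept throughout. Eligible barcodes numbered 6270, 7622 and 6007 with a median of 3173, 5318.5 and 8077 UMIs. No member barcode occurred in more than 1 library. A doublet score marked 0, 3 and 4 members. Among the genes the results turn on, GENCODE places Ager on chromosome 17 (34597862 to 34600936), Hopx on chromosome 5 (77086988 to 77115121), Rtkn2 on chromosome 10 (67979570 to 68059740), Akap5 on chromosome 12 (76324891 to 76334153) and Tnfrsf12a on chromosome 17 (23675445 to 23677468), all on GRCm38. Expression is given as CPM, the UMIs of a gene scaled to a fixed total of all UMIs summed over the named cells. These cells held 214736, 650492 and 374724 UMIs for the type 1-led members. Free RNA was measured in barcodes of 1 to 100 UMIs and is called the background level.

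**Figure D1:**
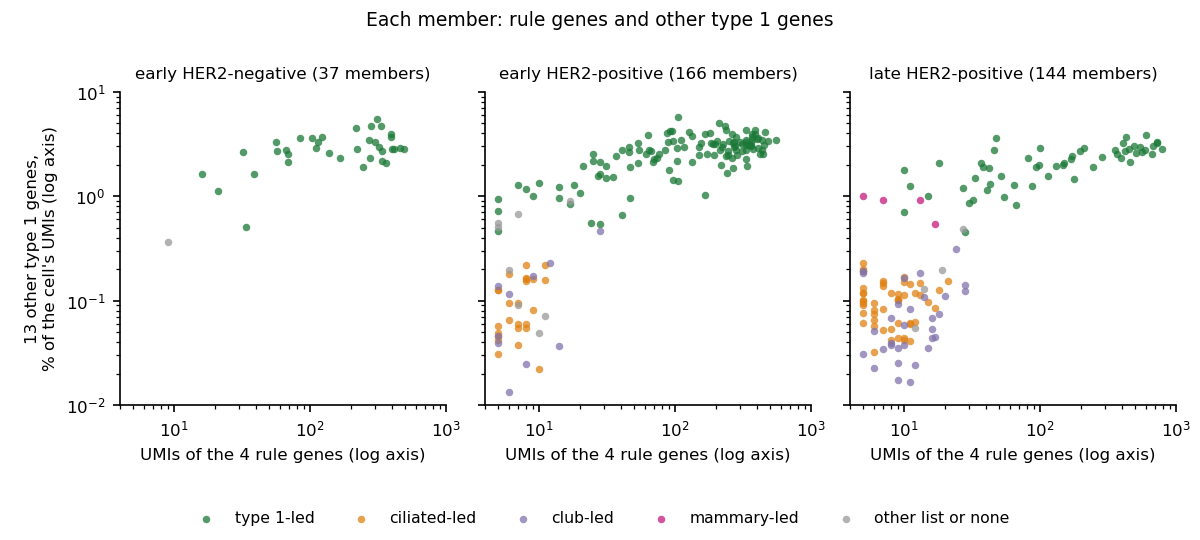
Each point is 1 member. The x axis gives UMIs of the 4 rule genes and the y axis the share of the cell's UMIs on 13 other type 1 genes, both on log axes, with 1 panel per library and colour by the leading marker list. Type 1-led members lie at 0.453% or above and reach 790 rule UMIs, while ciliated-led members lie at or below 0.229% and 21 rule UMIs.

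Members made up 0.590% of eligible early HER2-negative barcodes (0.416 to 0.812, exact binomial), 2.18% of early HER2-positive ones (1.86 to 2.53) and 2.40% of late HER2-positive ones (2.03 to 2.82). Type 1-led members made up 0.574% (0.402 to 0.794), 1.61% (1.34 to 1.92) and 0.932% (0.705 to 1.21). Counted over all members the late library had the highest share, and counted over type 1-led members the early HER2-positive library did. These are shares of sorted cells, and the sort on HER2 sets which cells enter. The limits of the rule removed many barcodes with at least 5 rule UMIs. Of 495, 3340 and 3524 such barcodes, 35, 2910 and 3274 held 5% Sftpc or more. The rule UMIs of these Sftpc-rich barcodes were 96.6%, 90.9% and 89.2% Ager. Ager stood at 1438, 1409 and 1217 CPM in them, against 23666, 24432 and 18934 CPM in the type 1-led members and a background level of 351, 1251 and 944 CPM. Their median depth was 8926, 7689.5 and 9022 UMIs, with a median of 13, 10 and 11 rule UMIs. A further 423, 264 and 106 held a UMI of a stroma gene.

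The barcodes at the edges of the rule are given next. Barcodes with exactly 4 rule UMIs that met the other limits numbered 3, 18 and 14, of which 1, 0 and 0 were type 1-led. Members with exactly 5 rule UMIs numbered 0, 15 and 16, of which 0, 3 and 0 were type 1-led. Barcodes with 1 stroma UMI numbered 12, 15 and 6, and 4, 6 and 1 of these were type 1-led. Those with 2 stroma UMIs numbered 4, 12 and 2, of which 1, 7 and 1 were type 1-led, so this limit set aside more type 1-led barcodes than the limit of 5 rule UMIs did at 4. With Sftpc between 5% and 6% of UMIs there were 0, 1 and 5 barcodes, of which 0, 1 and 1 were type 1-led. Just inside this limit, between 4% and 5%, there were 0, 1 and 0 members.

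Type 1-led members carried the rule genes in bulk. Their median number of rule UMIs was 219, 166 and 140, with ranges of 16 to 489, 5 to 557 and 10 to 790. All had an Ager UMI, and 35 of 36, 103 of 123 and 48 of 56 had UMIs of all 4 rule genes. The 13 other type 1 genes took a median of 2.85%, 2.77% and 2.11% of a cell's UMIs. The lowest cell in each library had 0.509%, 0.466% and 0.453%. Markers of other cells were under their background level in some lists and above it in others. Of 12 leukocyte markers, 12, 11 and 10 were at 0 UMIs, including Ptprc, which encodes CD45. Basal airway markers were at 0 in all 3 libraries (5 of 5), neuroendocrine markers at 0 for 5, 5 and 4 of 5. The 9 pericyte and smooth muscle markers summed to 9.31, 18.4 and 16.0 CPM against background sums of 604, 2027 and 1053. The 11 endothelial markers outside the rule summed to 452, 430 and 307 CPM, against background sums of 13915, 2765 and 1282. Ciliated markers stood above background, at 605, 653 and 558 CPM against 187, 339 and 384, and Tppp3 gave 605, 647 and 555 CPM of this while Foxj1 had 0 UMIs in all 3 libraries. Mesothelial markers summed to 377, 352 and 398 CPM against 6.76, 12.4 and 6.16, with Gpm6a at 359, 334 and 358 CPM and 5 of the 7 markers at 0 in each library. Fibroblast markers summed to 931, 787 and 894 CPM against 3139, 933 and 469, with Npnt at 824, 719 and 806 CPM. The part of other cells in these levels was not tested.

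The ciliated-led members numbered 0, 25 and 49 and owed their place to Hopx. Hopx gave 96.1% of their rule UMIs in the early HER2-positive library and 95.3% in the late one, at 770 and 798 CPM. No Ager UMI was found in 23 of 25 and 42 of 49 of them, and Ager summed to 8.95 and 17.8 CPM, under the background level. Foxj1, the transcription factor of motile cilia, stood at 591 and 751 CPM in these cells and had a UMI in 24 of 25 and 49 of 49. Tppp3, a microtubule-binding protein gene abundant in ciliated cells, stood at 3800 and 3401 CPM. Their median rule UMIs were 7 and 8, close to the limit of 5, while their median total was 8763 and 9808 UMIs, above that of type 1-led members (4406 and 4567.5). The 4 rule genes took a median of 0.0731% and 0.0837% of their UMIs, against 3.33% and 3.02% in type 1-led members. Pdpn, the podoplanin gene of type 1 cells, had 0 UMIs in all 25 and 49 ciliated-led members.

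The club-led members numbered 0, 10 and 31. Scgb1a1, the secretoglobin of club cells, made up 256829 CPM of their UMIs in the early HER2-positive library and 473318 CPM in the late library. Their rule UMIs were 57.1% and 55.1% Hopx and 38.8% and 44.9% Ager, with 0 Rtkn2 UMIs in both libraries. Ager summed to 332 and 314 CPM, under the background levels of 1251 and 944. Pdpn had 0 UMIs in these cells as well. Of the other members, 4 in the late library were led by mammary genes, with Csn3, a casein gene, at 10963 CPM and Aqp5 at 8097 CPM. A further 1, 8 and 4 members were led by type 2, endothelial, fibroblast, pericyte and smooth muscle or leukocyte lists or by a tie.

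Among type 1-led members Ager was the most abundant rule gene, and Hopx was higher in the late library. Ager stood at 23666 CPM (23020 to 24326) in the early HER2-negative, 24432 (24054 to 24815) in the early HER2-positive and 18934 (18496 to 19380) in the late HER2-positive library. Hopx stood at 8625 (8236 to 9026), 7341 (7134 to 7552) and 13058 CPM (12694 to 13429). The early over late ratio was 1.29 for Ager (1.25 to 1.33) and 0.562 for Hopx (0.540 to 0.585). The cells overlapped widely between libraries. Single cells ranged from 776 to 51568 CPM of Ager in the early HER2-positive and from 669 to 37330 in the late library, with medians of 22952 and 13795. For Hopx the median cell had 7925, 6532 and 11866 CPM. Rtkn2 summed to 1518, 1276 and 1761 CPM and Akap5 to 1923, 1792 and 1937 CPM. As genes of the rule these 4 are described only. The background level of Hopx was 385, 261 and 245 CPM, and the part of free RNA in its level in these cells was not tested.

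**Figure D2:**
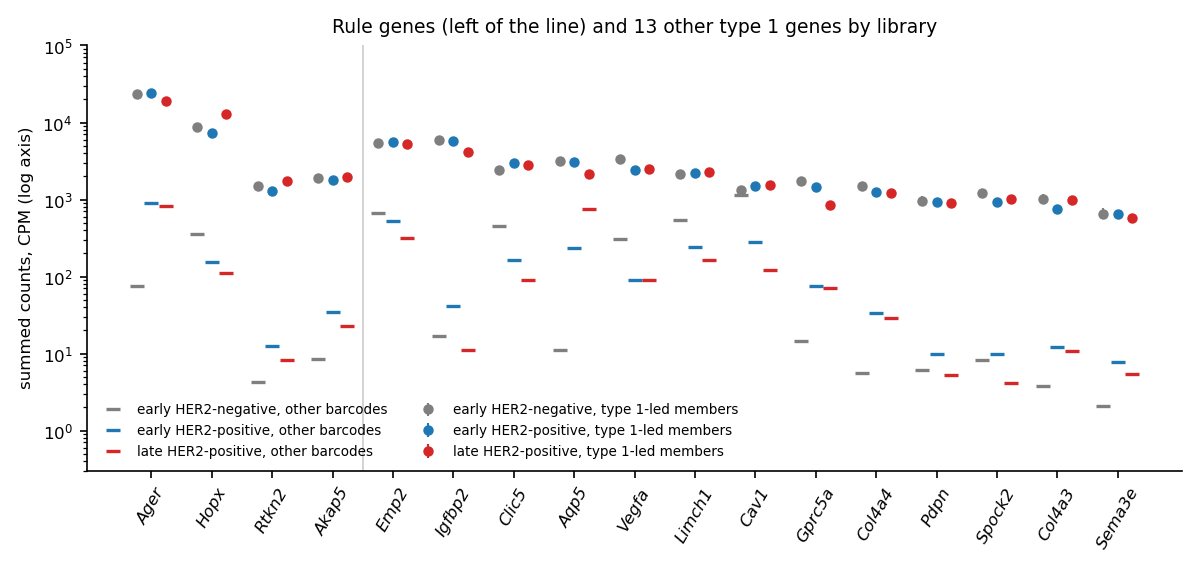
Summed level of each gene in CPM (log axis) in type 1-led members (circles, with exact Poisson 95% intervals, mostly smaller than the symbol) and in all other eligible barcodes (dashes), by library. Circles lie above dashes for each gene in each library, and the gap is smallest for Cav1 in the early HER2-negative library, at 1318 against 1161 CPM.

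Of the 13 other type 1 genes, Pdpn was close in the 3 libraries and Gprc5a, a receptor gene, differed most between the HER2-positive ones, at 1756, 1442 and 838 CPM. Pdpn, which encodes a membrane mucoprotein of the apical surface, stood at 964, 918 and 894 CPM, against 6.16, 9.97 and 5.24 in all other eligible barcodes. Igfbp2, a secreted insulin-like growth factor binding protein, stood at 5975, 5737 and 4091 CPM, against 17.0, 42.0 and 11.2. Aqp5, a water channel, stood at 3148, 3047 and 2114 CPM. The median cell had 4887, 4045 and 2248 CPM of Igfbp2 and 2634, 2318 and 1321 CPM of Aqp5, lowest in the late library for both. Emp2 and Clic5 belonged to the most abundant of the 13 and were found in nearly every cell, with 1 to 2 cells at 0 in each library. Pdpn was at 0 in 4 of 36, 25 of 123 and 13 of 56 cells, and Igfbp2 in 4, 16 and 10 cells. When each cell was thinned to 1000 UMIs, Pdpn was found in 44.4%, 55.3% and 50% of type 1-led members. In barcodes with endothelial UMIs, the thinned share was at most 0.248% in any library. Median depth was 6062, 4406 and 4567.5 UMIs in the former, and 3044, 3979.5 and 5696.5 in the latter. Cav1, a caveolin, marks endothelium too, and its 1161 CPM in the other early HER2-negative barcodes shows that it does not set these cells apart there.

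Over all other eligible barcodes of their own library, 1151 of 11734 genes (9.81%) were at least 2-fold higher in type 1-led members in each of the 3 libraries, and 672 of 11741 (5.72%) were in all members. A gene was measured when it had at least 30 counts over the pair. Genes were ranked by their lowest ratio over the 3 libraries. Csf1r, the receptor for macrophage colony-stimulating factor, ranked 11 with 177, 135 and 131 CPM against at most 1.84. The 12 leukocyte markers summed to 0, 21 and 41 UMIs in the same cells, of which Lyz1 gave 0, 21 and 40. Other leading genes outside the chosen lists were Sema3a, which encodes a secreted guidance protein (321, 344 and 387 CPM), Scel, the cornified-envelope protein sciellin (456, 504 and 459), and Poc1a, a centriole protein (1229, 1004 and 1180). Bdnf, brain-derived neurotrophic factor, stood at 559, 553 and 544 CPM. Scnn1g, a subunit of the epithelial sodium channel that clears alveolar fluid, stood at 373, 340 and 518. Flrt3, Nt5e, Sh3rf2, Sphk1 and Stx11 were others outside the lists, and each was at least 37.1-fold higher in each library. Igfbp2, Gpm6a, Spock2, Pdpn, Sema3e, Col4a3 and Col4a4 also ranked among the first 20, but stand on lists used to choose the cells.

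The type 1-led members were next set against type 2 cells of the same library, defined by 5% Sftpc or more, under 5 rule UMIs and 0 stroma UMIs, so they are cells chosen to be low in Ager. There were 1047 such cells in the early HER2-positive and 732 in the late library, and only 9 in the early HER2-negative library, which was left out. The 2910 and 3274 Sftpc-rich barcodes with at least 5 rule UMIs were thereby set aside. Their median depth was 7689.5 and 9022 UMIs, against 4797 and 7777 in the type 2 cells kept. Of 8967 genes measured in the early HER2-positive library, 3251 (36.3%) were at least 2-fold higher and 1051 (11.7%) lower in type 1-led members. In the late library 3226 of 8771 (36.8%) were higher and 930 (10.6%) lower. Sftpc alone took a median of 20.8% and 21.3% of the UMIs of type 2 cells, which lowers the CPM of their other genes. Scaling by trimmed means (TMM) moved ratios down by 0.83 and 0.90 on the log2 scale, and the split became 1175 higher and 2150 lower in the early HER2-positive library and 1049 and 2078 in the late one. The median log2 ratio of all genes was 0.67 and 0.68 before this scaling. Over all members, 3687 of 9464 genes (39%) were higher and 776 (8.2%) lower than in type 2 cells in the early HER2-positive library, and 2868 of 9813 (29.2%) and 696 (7.09%) in the late one. Lists are therefore given with their TMM counts where these differ, and are read beside the shares of all genes in this paragraph.

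**Figure D3:**
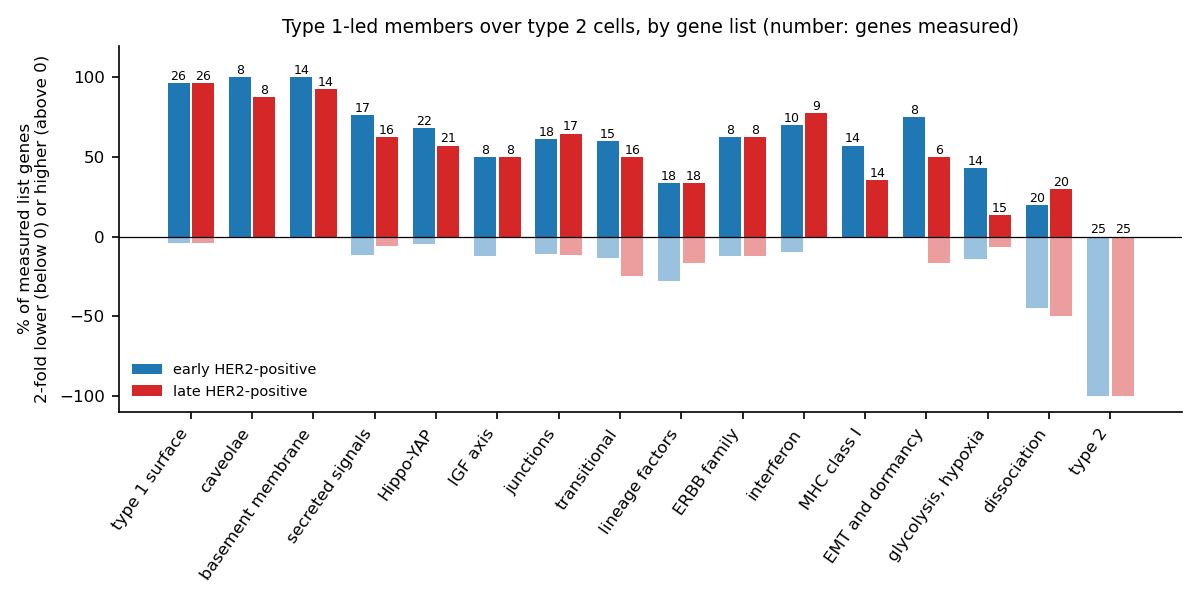
Share of each list's measured genes that was at least 2-fold higher (above 0) or lower (below 0) in type 1-led members than in type 2 cells, in the early (blue) and late (red) HER2-positive libraries, with the number of genes measured above each bar. The type 1 surface, caveolae and basement membrane lists stand almost wholly above 0 and the type 2 list wholly below. Shares are before TMM scaling and include genes that chose the cells, which partly set these directions. Over all genes, 36.3% and 36.8% were higher and 11.7% and 10.6% lower.

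Genes of the flat cell body and its surface are given first, with and without those that chose the cells. Of 26 type 1 surface genes, 25 were higher and 1 lower in both libraries, also with TMM scaling. The exception was Mal, a raft protein gene, at 13.8 against 85.8 CPM and 5.34 against 93.7 CPM. Cldn18, the tight junction claudin of alveolar epithelium, stood at 4401 against 552 CPM in the early HER2-positive library, a ratio of 7.98 (7.58 to 8.40), and at 4355 against 647 in the late one. Scnn1g stood at 340 against 2.76 and 518 against 2.47 CPM. All 8 caveolae genes measured were higher in the early HER2-positive and 7 in the late library (7 and 6 with TMM scaling). Sdpr (cavin-2), a coat protein of caveolae, stood at 1671 against 15.1 and 1641 against 7.05 CPM. Of these lists, Pdpn, Aqp5, Cav1, Clic5, Emp2, Gprc5a, Limch1 and Spock2 were among the genes that chose the cells. Without the choosing genes, 17 of 18 surface genes were higher and 1 lower in both libraries, also with TMM scaling. Of caveolae genes, 7 of 7 and 6 of 7 were then higher (6 and 5 with TMM scaling).

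The basement membrane list was higher in 14 of 14 measured genes in the early HER2-positive and 13 of 14 in the late library, and in 11 of 14 in both with TMM scaling. Without the choosing genes it was higher in 11 of 11 and 10 of 11 (8 of 11 in both with TMM scaling). Col4a3 and Col4a4, collagen chains of thick basement membranes that also chose the cells, stood at 764 and 1236 CPM in the early HER2-positive library against 11.97 and 34.4 in type 2 cells. Outside the chosen genes, Col4a1 stood at 652 against 134 CPM and 536 against 119 CPM. Agrn, a heparan sulphate proteoglycan gene, stood at 335 against 15.1 and 286 against 11.6. Lama3, a chain of laminin-332, stood at 235 against 14.4 and 238 against 13.2, and its partner Lamb3 differed less, at 189 against 49.5 and 221 against 54.4. Npnt, an integrin ligand gene on the fibroblast list that was compared in choosing the cells, stood at 719 against 103 and 806 against 96.2.

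Among secreted signals, 13 of 17 measured genes were higher and 2 lower in the early HER2-positive library, and 10 of 16 and 1 in the late one (11 and 3, and 9 and 1, with TMM scaling). Without the choosing genes, 11 of 15 were higher and 2 lower, and 8 of 14 and 1 (9 and 3, and 7 and 1). Vegfa, the endothelial growth factor and one of the choosing genes, stood at 2417 against 44.7 CPM and 2482 against 55.1. Sema3a stood at 344 against 0.552 and 387 against 0.352 CPM. Pdgfa, a growth factor for alveolar myofibroblasts, stood at 938 against 60.2 and 867 against 49.3, and Tgfb2 at 178 against 0.184 and 155 against 0.352 CPM. The type 2 values of Sema3a and Tgfb2 rest on 1 to 3 UMIs, so their ratios are loosely bounded (Tgfb2 170- to 38583-fold in the early HER2-positive library). Areg, amphiregulin, went the other way at 26.1 against 81.4 CPM, and had 0 UMIs against 81.2 CPM in the late library.

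Genes of the Hippo pathway, which restrains the coactivators YAP and TAZ, were higher in 15 of 22 measured and lower in 1 in the early HER2-positive library, and higher in 12 of 21 in the late one. With TMM scaling 11 were higher and 2 lower, and 11 and 3. Target genes differed most. Ctgf stood at 412 against 3.13 CPM and 344 against 0.176, Cyr61 at 487 against 19.1 and 379 against 14.8, and Ankrd1 at 160 against 0.368 and 173 against 1.06. Tead1, a partner of both coactivators, stood at 592 against 39.6 and 689 against 29.9. Wwtr1, which encodes TAZ, stood at 111 against 28.7 and 160 against 25.2, while Yap1 stood at 30.7 against 32.8 (ratio 0.938, 0.559 to 1.49) and 48.0 against 36.1 (1.33, 0.773 to 2.16).

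Lineage factors went both ways. Of 18 measured, 6 were higher and 5 lower in the early HER2-positive library and 6 and 3 in the late one. With TMM scaling 3 were higher and 8 lower in both. Over all genes, 36.3% and 36.8% were higher and 11.7% and 10.6% lower before TMM scaling. After it, more of all genes were lower than higher in both libraries. Nkx2-1 stood at 309 against 258 CPM and 352 against 227, within the 2-fold limit. Gata6, an endoderm factor, stood at 217 against 45.3 and 184 against 43.9. Id3, an inhibitor of helix-loop-helix factors, stood at 180 against 8.10 and 342 against 3.52. Etv5 and Cebpa, factors of type 2 cells, stood at 4.61 and 0 CPM in the early HER2-positive type 1-led members against 289 and 197. In the late library both had 1 UMI in type 1-led members, at 2.67 CPM, against 262 and 222 CPM. Both groups of cells were chosen by Sftpc, and the type 1-led ones also against a type 2 marker list, so the direction of type 2 genes was largely set by the choice. Of the 25 type 2 genes, all 25 were lower in both libraries, also with TMM scaling, and so were the 15 that had not been used to choose cells. Among the choosing genes, Lyz2 stood at 43.0 against 17438 and 104 against 20435 CPM and Slc34a2, a phosphate transporter, at 20.0 against 3409 and 24.02 against 3955. Lyz1 and Lyz2 are near-identical copies, and their reads may be split between them.

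Smaller lists gave these counts, with those after TMM scaling in brackets. They are read beside all genes, of which 36.3% and 36.8% were higher and 11.7% and 10.6% lower before TMM scaling. After TMM scaling more of all genes were lower than higher in both libraries, and the bracketed counts are read beside that. IGF axis genes were higher in 4 of 8 and lower in 1 in the early HER2-positive and higher in 4 of 8 in the late library (4 and 2 in both). Igfbp2 stood at 5737 against 3.68 CPM in the early HER2-positive library, Igfbp6 at 1960 against 92.4 and Igf1r, the receptor, at 177 against 5.34. Junction genes were higher in 11 of 18 and lower in 2, and in 11 of 17 and 2 in the late library (8 and 2, and 7 and 3). Of these, Cldn3 was lower at 43.0 against 516 CPM and 72.1 against 483. ERBB family genes were higher in 5 of 8 and lower in 1 in both libraries (3 and 2, and 4 and 1). Egfr stood at 121 against 3.87 and 163 against 4.58 CPM, and the ligand gene Nrg1, neuregulin 1, at 64.6 against 0.368 and 80.1 against 0.352. Interferon genes were higher in 7 of 10 and lower in 1, and higher in 7 of 9 in the late library (5 and 2, and 4 and 0). Ifit3 led them at 204 against 0.736 CPM and 131 against 0.352.

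Transitional genes were higher in 9 of 15 and lower in 2 in the early HER2-positive library, and higher in 8 of 16 and lower in 4 in the late one (6 and 2, and 6 and 6). Krt19 stood at 1405 against 56.2 and 907 against 49.5 CPM. The counts here are again read beside the 36.3% and 36.8% higher and 11.7% and 10.6% lower of all genes before TMM scaling. For the bracketed counts, more of all genes were lower than higher after TMM scaling. MHC class I genes were higher in 8 of 14 and 5 of 14, with none lower (1 higher, and 1 lower). Mesenchymal and dormancy genes were higher in 6 of 8, and in 3 of 6 with 1 lower (1 and 0, and 2 and 1). The dissociation list, immediate early genes that tissue digestion induces, was higher in 4 and lower in 9 of 20 in the early HER2-positive library and higher in 6 and lower in 10 in the late one (2 and 13, and 4 and 13). Egr1 stood at 32.3 against 241 CPM and 2.67 against 184, and Ier3 the other way at 3410 against 70.5 and 1556 against 43.7. Glycolysis and hypoxia genes were higher in 6 and lower in 2 of 14 in the early HER2-positive and 2 and 1 of 15 in the late library. Their balance turned with TMM scaling (2 and 4, and 1 and 5), as did that of all genes. Of 3 cell cycle genes measured, 1 was lower in the early HER2-positive library, Bub1.

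By ratio alone, with the rule genes left out, the highest genes over type 2 cells in the early HER2-positive library included Plod2, Igfbp2, Bdnf, Pdpn, Tgfb2, Spock2, Ptpre, Sema3a and Gpm6a. In the late library they were Igfbp2, Bdnf, Ctgf, Sema6d, Cped1, Akap2, Sema3a, Sema3e, Nt5e and Gpm6a. Igfbp2, Pdpn, Spock2, Gpm6a and Sema3e were used in choosing these cells. Bdnf stood at 553 against 0.368 CPM, on 2 type 2 UMIs, with a ratio interval of 413 to 12458. Plod2, a collagen lysyl hydroxylase gene, stood at 389 against 0.184 CPM, on 1 type 2 UMI (376 to 83766). Gpm6a, a membrane glycoprotein gene, had 217 UMIs in early HER2-positive type 1-led members and 0 in type 2 cells, and was at least 604-fold higher against a floor of 3 counts in the group. The lowest in the early HER2-positive library were Fabp5, Lyz1, Lyz2, Car8, Hc, Cxcl15, Acoxl, Sftpa1, Slc34a2 and Egfl6. In the late library Chia1, S100g and Sftpb took the places of Hc, Acoxl and Egfl6. Lyz1, Lyz2, Cxcl15, Sftpa1, Slc34a2 and Sftpb were used in choosing the cells too. Fabp5, a fatty acid binding protein gene, had 1 UMI in 123 early HER2-positive type 1-led members and stood at 2067 CPM in type 2 cells.

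The comparison of stage asks how type 1-led members of the late library differ from the early HER2-positive ones. Of 4901 genes measured, 458 (9.35%) were higher by 1.5-fold or more in the early library and 521 (10.6%) lower by as much. The list that stood furthest from the median of all genes was the transitional list, genes known from epithelial cells on the way from type 2 to type 1. Of its 12 measured genes 6 were higher in the early library and 1 lower, with a median log2 ratio of 0.58 against −0.03 over all genes. The count was 4 when each cell had equal weight, 7 with TMM scaling and 3 of 8 measured when cells were thinned to 1000 UMIs.

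Tnfrsf12a, the receptor for TWEAK, differed most among the abundant members of that list. It stood at 261 CPM (197 to 339) in the early HER2-negative, 503 (450 to 560) in the early HER2-positive and 136 (101 to 179) in the late library. These 3 intervals of counting error did not overlap, but they leave out spread between cells and between animals. The early over late ratio was 3.69 (2.74 to 5.06). Hbegf, the heparin-binding EGF-like growth factor, stood at 736, 786 and 302 CPM, with a ratio of 2.61 (2.12 to 3.22), and was high in both early libraries. Lgals3, galectin-3, stood at 647, 1165 and 664 CPM, with a ratio of 1.75 (1.52 to 2.03), and was high in the early HER2-positive library alone. Krt19, a simple-epithelium keratin, stood at 1136, 1405 and 907 CPM, with a ratio of 1.55 (1.37 to 1.76). Krt7, Krt8, Krt18 and the integrin gene Itgb6 were 1.22- to 1.44-fold higher in the early library, within the 1.5-fold limit. Sfn and Clu rested on few UMIs, 29 against 4 and 49 against 10. Cdkn1a, the cell cycle inhibitor p21, was lower in the early library, at 55.3 against 133 CPM, a ratio of 0.415 (0.263 to 0.649), and 1 cell held 26.0% of its late counts.

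**Figure D4:**
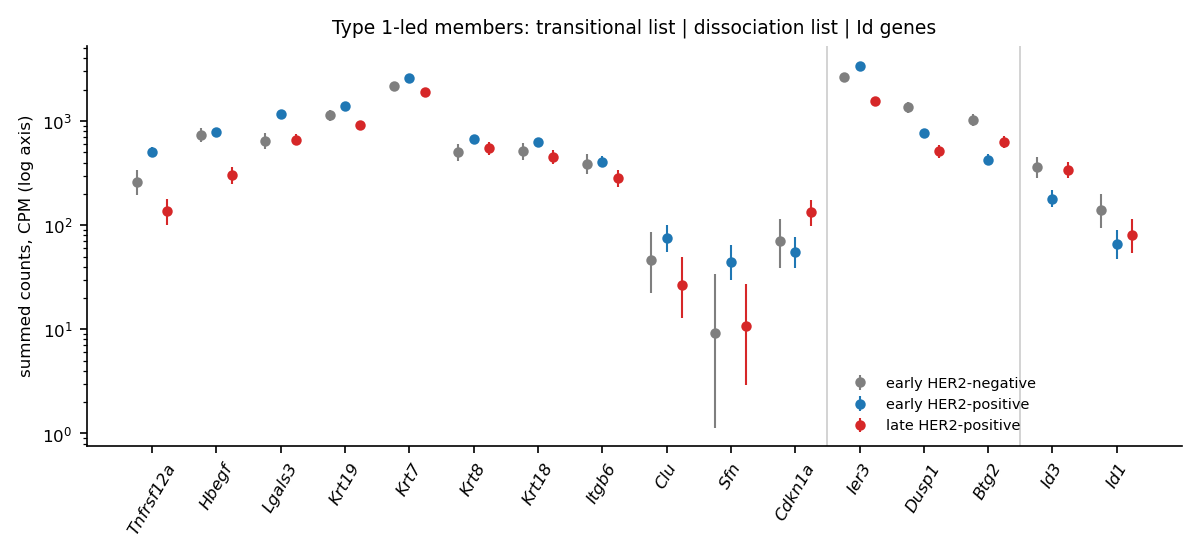
Summed level of named genes in type 1-led members in CPM (log axis), with exact Poisson 95% intervals, in the early HER2-negative (grey), early HER2-positive (blue) and late HER2-positive (red) libraries. From left to right, the panels hold transitional genes, dissociation genes and 2 Id genes. Tnfrsf12a is highest in the early HER2-positive library at 503 CPM, and Id3 is lowest there at 180 CPM.

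The dissociation list moved in the same comparison, and its part in the transitional result was not tested. Of its 16 measured genes 5 were higher in the early HER2-positive library (Fos, Fosb, Atf3, Ier3 and Dusp1) and 1 lower (Hspa1a), with a median log2 ratio of 0.42. Ier3 stood at 2664, 3410 and 1556 CPM, and Dusp1, a phosphatase of MAP kinases, at 1351, 776 and 512. Single cells weighed heavily on the rest: 1 cell held 41.5% of early HER2-positive Fos counts, 43.9% of Fosb and 67.6% of Atf3. For Tnfrsf12a, Hbegf and Lgals3 the top cell held 7.65%, 8.61% and 8.05%.

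The counts of structural lists between stages are read beside the 9.35% higher and 10.6% lower of all genes. Of 25 type 1 surface genes measured, Gprc5a was higher in the early HER2-positive library (1442 against 838 CPM, ratio 1.72, 1.51 to 1.96). Scnn1g was lower (340 against 518, ratio 0.656, 0.539 to 0.8). Gprc5a was among the genes that chose the cells. Without those genes, 0 of 17 surface genes were higher and 1 lower, or 0 lower with TMM scaling. Of 8 caveolae genes 1 was higher (Ehd4), of 14 basement membrane genes 1 (Lama5), and of 17 Hippo genes 1 was higher (Lats1) and 1 lower (Yap1), the last 3 on at most 41 UMIs a group. Bmp4, a bone morphogenetic protein gene, was higher in the early library at 281 against 163 CPM, a ratio of 1.73 (1.29 to 2.35). Id3 was lower, at 180 against 342 CPM, a ratio of 0.527 (0.406 to 0.682). Cdkn1b, the inhibitor p27, was also lower, at 134 against 227 CPM (0.590, 0.432 to 0.805). Of 10 MHC class I and 5 IGF axis genes measured none passed 1.5-fold in either direction. Of 7 interferon genes 2 were higher (Isg15, with 65.0% of counts in 1 cell, and Ifit3). No cell cycle gene reached 30 counts over the pair.

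The genes with the most extreme early over late ratios were Fosb, Phlda1, Wsb1, Psmg2, Txndc5, Ubl4a, Thbs1, Tnfrsf12a, Pcolce and Ube2f at the high end, with ratios of 3.26 to 5.90. At the low end were Avl9, Lyz1, Atp5k, Mrps28, Thrb, Polb, Sik1, Ost4, Bcl9l and Ssx2ip, with ratios of 0.301 to 0.360. Most of them rested on few UMIs. After thinning of cells to 1000 UMIs, Fosb, Ube2f and Avl9 turned direction, to log2 ratios of −1.72, −0.14 and 0.45, and Lyz1 did so with the background taken off (0.71). Phlda1, a pleckstrin-homology protein induced by growth signals, had 141 against 18 UMIs (4.51-fold, 2.75 to 7.83), with 29.1% of the early counts in 1 cell. Pcolce, an enhancer of procollagen processing, had 76 against 13 (3.37-fold, 1.86 to 6.61). Ost4, a subunit of oligosaccharyltransferase, had 34 against 57 (0.344, 0.218 to 0.535). Lyz1 stood far under its background level in both libraries, at 32.3 and 107 CPM against 7996 and 10713.

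Over all members the same comparison gave 1903 of 8204 genes higher in the early library (23.2%) and 821 lower (10%), and 1173 higher and 1380 lower with TMM scaling. Scgb1a1 took 29114 CPM over the early and 162176 CPM over the late members, against 89.2 and 144 CPM in the type 1-led ones. Of the type 1 surface list 24 of 26 genes were higher and 0 lower over all members, against 1 and 1 of 25 over type 1-led members. Cldn10 and Kcnn4, low in early members as a whole, turned to log2 ratios of 0.20 and 0.79 over type 1-led members. Type 1-led members were 74.1% of early and 38.9% of late members.

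The early HER2-negative and early HER2-positive libraries differ in the sort and share age and stage. Of 4338 genes measured in type 1-led members, 360 (8.30%) were at least 1.5-fold higher in the HER2-negative library and 532 (12.3%) lower. Both comparisons use the early HER2-positive library, so they are not independent. No type 1 surface gene of 25, and no secreted signal of 12, passed 1.5-fold in either direction. The transitional list had 0 of 12 genes higher and 4 lower in the HER2-negative library (Sfn, Lgals3, Clu and Tnfrsf12a). The ratio was 0.519 for Tnfrsf12a (0.384 to 0.691) and 0.555 for Lgals3 (0.460 to 0.666). Id1 and Id3 were higher in the HER2-negative library, at 140 against 66.1 CPM (ratio 2.11, 1.28 to 3.45) and 363 against 180 (2.02, 1.497 to 2.71). The background level of Id3 was 1291, 425 and 220 CPM, and that library's other barcodes, most with endothelial UMIs, held 1179 CPM. Of 16 dissociation genes 3 were higher (Junb, Dusp1 and Btg2) and 3 lower (Atf3, Klf4 and Hspa1a). Btg2, an antiproliferative gene, stood at 1029 against 427 CPM (2.41, 2.01 to 2.88). Vegfa stood at 3386 against 2417 CPM, a ratio of 1.40 (1.28 to 1.53), and Egfr at 200 against 121 (1.65, 1.11 to 2.42).

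The most extreme ratios between the early libraries were those of Atp5k, Sik1, Chfr, Rictor, Usmg5, Ddx18, Gpatch2, Atf7, Ubp1 and Rasgef1b at 2.61 to 4.85, each with 14 to 36 HER2-negative UMIs. Lowest were Sftpa1, Scgb1a1, Epas1, Txn2, Furin, Vps13b, Tpm2, Camk1, Dcun1d1 and Wdr74 at 0.0322 to 0.267, each with 1 to 4 HER2-negative UMIs. Of these, Furin, Vps13b, Dcun1d1 and Wdr74 turned to log2 ratios of 0.36, 1.36, 1.04 and 1.77 after thinning. Usmg5, a subunit of ATP synthase, had 36 against 37 UMIs (2.95-fold, 1.81 to 4.79). Over all members 866 of 5816 genes were higher in the HER2-negative library (14.9%) and 1310 lower (22.5%).

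Club transcripts differed between libraries in the direction of their free RNA, while the summed type 2 markers did so between the early libraries only. The 9 type 2 markers outside the rule summed to 172, 592 and 531 CPM in type 1-led members. Their background sums were 2900, 40007 and 48701 CPM. The part of free RNA in these differences was not tested. Of 7 type 2 genes measured, 0 were higher and 4 lower in the HER2-negative type 1-led members (Sftpa1, Sftpb, Sftpd and Napsa). Sftpa1, Sftpb and Sftpd were used in choosing the cells. Without the choosing genes, 0 of 3 were higher and 1 lower. Sftpa1, surfactant protein A, stood at 4.66, 145 and 168 CPM in type 1-led members, and its background level at 1301, 16728 and 19411 CPM. Scgb1a1 stood at 4.66, 89.2 and 144 CPM, with a background of 1500, 10830 and 14534. The summed club genes reached 0.291%, 0.843% and 0.970% of their background level in type 1-led members. After thinning to 1000 UMIs, a Sftpc UMI was found in 5.56%, 50.4% and 69.6% of type 1-led members and in 2.82%, 62.1% and 75.4% of barcodes with endothelial UMIs, a class that should lack the gene. In both HER2-positive libraries the share in type 1-led members was below that in endothelial barcodes. Members were limited to under 5% Sftpc and the endothelial barcodes were not, so these shares are description only. One early HER2-positive cell held 57.6% of the Sftpd counts of its group.

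Erbb2, the mouse HER2 gene and the target of the sort, was scarce in type 1-led members of every library. It had 3, 16 and 5 UMIs, or 14.0 (2.88 to 40.8), 24.6 (14.1 to 39.9) and 13.3 CPM (4.33 to 31.1). The intervals overlapped between the HER2-negative and HER2-positive libraries, and the background level was 14.7, 21.9 and 34.1 CPM. Transcripts of the rat transgene are counted here only where their reads align to mouse Erbb2, and RNA does not show the surface protein that was sorted on. Zfp281, a zinc finger transcription factor gene followed in work on early dissemination, had 15, 53 and 30 UMIs, or 69.9 (39.1 to 115), 81.5 (61.0 to 107) and 80.1 CPM (54.0 to 114), and its early over late ratio was 1.02 (0.639 to 1.65). It stood above type 2 cells in both HER2-positive libraries, at ratios of 6.06 (4.17 to 8.75) and 5.90 (3.74 to 9.11). The background level was 29.5, 20.1 and 20.3 CPM. Of 25 genes on the list of mesenchymal and dormancy genes, 5 could be measured between stages, of which Thbs1 was higher in the early library and Cdkn1b lower. Vim, the mesenchymal filament gene, had 30.7 CPM in early and 8.01 in late type 1-led members. It was under the minimum of 30 counts over the pair, so its difference is not compared.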

How the data were processed

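The 3 files hold counts of UMIs per gene and barcode as deposited by the authors, 1 library each. Per the file headers they were written by software version 3.1.0, and mm10 is the build in the submitters' processing notes. The settings of alignment and counting were not stated in the labels. Each file lists 6794880 barcodes and 27998 genes.

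Barcodes were kept with at least 1000 UMIs, at least 200 genes and under 25% mitochondrial UMIs, and counts were summed over the named cells and divided by their UMI total. Genes with at least 30 counts over a pair were compared, and called past 1.5-fold between libraries or 2-fold against type 2 or other barcodes. Intervals are exact (Poisson, conditional binomial or Clopper-Pearson) at 95% and cover counting error only. A group at 0 was set against a floor of 3 counts over the group. With 1 library per group no test was made. Ratios and intervals were tested on simulated Poisson counts, the model the intervals assume. That simulation holds no spread between cells, so it checks the calculation only.

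Genes were named by rule. They had at least 50 CPM in a group and 30 counts over the pair, without ribosomal, mitochondrial, Gm, Rik and Y-linked genes, Erbb2, Xist, the 8 rule genes and genes with over 50% of counts in 1 cell. The 10 highest and 10 lowest ratios of a pair were taken, with the 20 genes whose lowest ratio over the libraries was highest, and up to 6 members of each list by level plus any past the fold. A few genes that this rule names are not reported here. Examples on lists beyond these were chosen after their values were seen, as were Csf1r and Aqp5 in the closing observations. The members and lists were chosen with earlier results of these data known, and the type 1-led split, and list counts without the genes that chose the cells, were added after the data had been seen.

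Scrublet in scanpy called 0.128%, 5.23% and 0.982% of barcodes doublets by its automatic threshold, so the highest scores were marked instead, at 0.8% per 1000 barcodes (315, 465 and 289 barcodes), and marked members were left out only as an alternative. Libraries shared 10 to 18 eligible barcodes. Gene coordinates came from GENCODE on GRCm38. Python 3.11.15, numpy 2.4.6, scipy 1.17.1, pandas 2.3.3, scanpy 1.11.5 and matplotlib 3.10.9 were used.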

Additional observations from a re-analysis of the deposited data

How the results depend on the processing

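Of the comparisons' values under alternatives, 142 stayed close to the reported ones and 53 moved. Of single genes, 1129 values stayed close, 211 moved and 17 turned direction, and the cause was not tested. No paired analysis was possible because each group holds 1 library. Taking off the background could not be run over all members, because club genes exceed it there, and was run on type 1-led members.

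Early HER2-positive members were 2.18% of barcodes, 1.84% with at least 2000 UMIs, 1.65% with at least 10 rule UMIs, 1.82% with the rule after thinning and 1.61% for type 1-led members, who were 1.27% with at least 2000 UMIs. The late share of 2.40% became 1.61% with 10 rule UMIs, 1.02% after thinning and 0.932% for type 1-led members, who were 0.648% with 2000 UMIs.

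Higher and lower genes in early over late members (1903 and 821) became 1173 and 1380 with TMM scaling, 3582 and 1831 with no count minimum, 400 and 286 after thinning and 458 and 521 in type 1-led members, and 1600 were lower with equal weight per cell. In early HER2-negative over HER2-positive members (866 and 1310), 2334 were higher with no minimum, and counts became 166 and 229 after thinning, 426 and 672 with 10 rule UMIs and 360 and 532 in type 1-led members. In members over type 2 cells, the early counts (3687 and 776) became 1369 and 1819 with TMM scaling and 1576 and 434 after thinning. The late ones (2868 and 696) became 1461 and 1491, and 987 and 359, with 4467 higher with no minimum.

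In type 1-led members, early over late (458 and 521) became 1643 and 2153 with no minimum and 142 and 120 after thinning, with 907 higher at equal weight. HER2-negative over HER2-positive (360 and 532) became 2192 and 1654, and 91 and 159, with 589 higher at equal weight. Over type 2 cells, early (3251 and 1051) became 1175 and 2150 with TMM scaling and 1462 and 506 after thinning, and late (3226 and 930) 1049 and 2078, and 934 and 381. Genes higher than other barcodes in all 3 libraries were 672 in all members and 1151 in type 1-led ones.

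Single genes that turned, as log2 ratios, were Kcnn4 (0.79) and Cldn10 (0.20) in early over late and Cyp2f2 (2.18), Cdkn1c (0.60), Map1b (0.014), Hp (1.18) and Fam213a (0.60) in HER2-negative over HER2-positive, with type 1-led members in place of all members. After thinning, Tshb (−0.83) and Ddx18 (−0.16) turned in members, and Fosb (−1.72), Ube2f (−0.14), Avl9 (0.45), Furin (0.36), Vps13b (1.36), Dcun1d1 (1.04) and Wdr74 (1.77) in type 1-led members. Lyz1 turned to 0.71 with the background taken off.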

Other observations

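Further values come from cells and genes that belong to no comparison of the report. Hopx was not limited to the members. It had a UMI in 45.7% of the other early HER2-negative barcodes and stood there at 361 CPM. After thinning to 1000 UMIs it was found in 25.4%, 27.0% and 23.02% of the barcodes with endothelial UMIs in the 3 libraries, at median depths of 3044, 3979.5 and 5696.5 UMIs. Ager was found in 0.565%, 7.20% and 5.56% of the same barcodes after thinning.

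Aqp5 stood at 8097 CPM in the 4 mammary-led members of the late library and had a UMI in all 4, against 2114 CPM in its type 1-led members and 205 CPM in its club-led ones. Csf1r had 38 UMIs in the 36 early HER2-negative type 1-led members, 88 in the early HER2-positive ones and 49 in the late ones, while Ptprc, Fcer1g, Tyrobp and Laptm5 had 0 UMIs in each of the 3 groups. Those 4 genes are on the leukocyte list that was compared in choosing these cells.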
